A study of Mus musculus with 8 samples.

Results

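Genes of cardiac nerves and their Schwann cells were examined in the neonatal mouse heart, namely Sox10, S100b, Mbp, Ngfr, Th, Dbh and Sema3a. Sema3a acts on axons and is not a marker of nerve cells, and the nerve supply itself was not measured. The 7 genes were picked by name and not by their values, and each matched a single locus among the 39614 loci that carry a gene symbol. RNA-seq was performed on hearts of male Hsd:ICR(CD-1) mice at postnatal day 1 (P1, n = 4) and at postnatal day 7 (P7, n = 4), with a library for each animal. The mice carried no stated transgene or treatment, and age was the only difference given between the groups. The tissue was labelled as whole heart, but the atrial appendages had been cut away before freezing, so nerve tissue located there was not sampled. Of the 7 genes, 5 reached 1 FPKM (fragments per kilobase of a locus, scaled to the size of the library) in at least 1 heart and entered the test, while Sox10 and Th stayed below 1 FPKM in all 8 hearts.

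Sympathetic axons reach the heart from neurons whose cell bodies lie outside it, in the stellate ganglia, and only small parasympathetic ganglia lie on the heart itself. The RNA of a heart therefore holds Schwann cells and intrinsic neurons but few sympathetic cell bodies. Growing axons respond to neurotrophins made by their target tissue, and Ngfr, the p75 receptor, binds these factors on neurons and Schwann cells. The secreted protein Sema3a repels growing sympathetic axons, and sympathetic nerves of the mouse heart continue to branch after birth. In noradrenaline synthesis Th converts tyrosine to dopa, Ddc converts dopa to dopamine and Dbh converts dopamine to noradrenaline. Sox10 is the transcription factor that defines cells of the Schwann lineage, S100b is a calcium-binding protein abundant in Schwann cells and Mbp is a structural protein of myelin.

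The promoters of the 2 noradrenaline enzymes and of Ngfr are shown since Th and Dbh act in the same pathway, yet only Dbh reached a level that could be tested, and since Dbh and Ngfr both rose. Each sequence holds the 250 bases upstream of the RefSeq transcription start (GRCm38.p6), read 5′ to 3′ along the gene's strand. The Th and Dbh windows lie inside the spans of their measured loci, given below, and the Ngfr window overlaps the edge of its span. The measured loci thus begin upstream of these RefSeq starts. RefSeq windows matched 5 of the 7 genes, with Mbp and Sox10 unmatched. Capitals mark the cAMP response element TGACGTCA, the GC box GGGCGG, the TATA box TATAAA or the homeodomain core ATTA, searched on both strands, and no marked letters overlap.
Th, chr7:142899996-142900245, minus strand: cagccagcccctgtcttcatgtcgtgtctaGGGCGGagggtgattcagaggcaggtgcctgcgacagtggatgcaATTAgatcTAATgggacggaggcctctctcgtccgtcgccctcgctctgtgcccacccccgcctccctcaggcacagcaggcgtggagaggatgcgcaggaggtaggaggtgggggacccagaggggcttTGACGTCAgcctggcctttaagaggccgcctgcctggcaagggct
Dbh, chr2:27165257-27165506, plus strand: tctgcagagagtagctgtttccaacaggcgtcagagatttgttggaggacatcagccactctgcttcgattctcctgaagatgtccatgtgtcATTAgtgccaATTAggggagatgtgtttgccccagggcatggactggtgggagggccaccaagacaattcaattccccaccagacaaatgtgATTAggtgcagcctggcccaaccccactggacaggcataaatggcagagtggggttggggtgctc
Ngfr, chr11:95587699-95587948, minus strand: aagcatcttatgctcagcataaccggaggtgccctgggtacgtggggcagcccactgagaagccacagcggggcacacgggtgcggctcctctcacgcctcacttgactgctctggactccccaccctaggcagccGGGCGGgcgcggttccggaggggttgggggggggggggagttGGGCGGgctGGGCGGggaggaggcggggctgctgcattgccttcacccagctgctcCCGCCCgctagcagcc

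The Th window holds a cAMP response element 45 to 38 bases before the start, together with a GC box and a pair of facing ATTA cores. The Dbh window holds 3 ATTA cores, at 157, 147 and 65 bases before the start, and none of the other motifs. The Ngfr window holds 4 GC boxes, the nearest of them on the other strand and 16 to 11 bases before the start. Among 32817 mouse windows of the same length, the cAMP response element was present in 1.55%, TATAAA in 12.4%, the GC box in 32.7% and ATTA in 54.9%. At least 3 GC boxes were found in 8.47% and at least 3 ATTA cores in 17.3%. The letters G and C made up 64.4% of the Th window, 53.2% of the Dbh window and 70.4% of the Ngfr window. These matches describe the letters alone and no binding was measured.

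The files give Sox10 at chr15:79154913-79164490, S100b at chr10:76253853-76345291, Mbp at chr18:82475146-82585849, Ngfr at chr11:95568818-95587735, Th at chr7:142892716-142931190, Dbh at chr2:27165233-27183356 and Sema3a at chr5:13280033-13603688 on GRCm38. The span given for S100b also covers Dip2a on the opposite strand, but the exons of the genes share 0 bases and each has a value of its own. FPKM of weak loci rose in whole-fragment steps, with 96.6% to 99.0% of the values examined lying within 0.1 fragment of a whole number. The steps corresponded to between 14700000 and 23000000 fragments per heart and gave the approximate number of fragments behind each value. By this estimate Th rested on 0 to 13 fragments in a heart, Sox10 on 4 to 27, S100b on 11 to 39, Ngfr on 9 to 92, Dbh on 44 to 255, Mbp on 108 to 227 and Sema3a on 284 to 646. The lowest levels are thus set by few fragments, and counting error alone is large for Th and Sox10.

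Between P1 and P7, Dbh and Ngfr rose, and for both genes the lowest P7 heart lay above the highest P1 heart. Sox10, S100b, Mbp and Sema3a gave overlapping values at the stages, and Th was near 0 throughout. A locus was called differentially expressed with a Benjamini-Hochberg adjusted p under 0.05 in limma and a mean FPKM differing at least 1.5-fold. By this rule 2 of the 5 tested genes were higher in P7 and 0 were lower, also at an unadjusted p under 0.05. At that unadjusted threshold 25.6% of all annotated loci tested were higher and 4.10% lower, which is the background of every such count given here. The rule itself called 8.14% of all 17960 annotated loci tested (7.74% higher and 0.401% lower in P7). Stages without overlap were found for 20.0% of these loci (17.3% higher and 2.69% lower in P7). The median log2 fold change of all of them was 0.19 rather than 0. Ngfr passed the filter through its P7 hearts only. In whole tissue, fewer cells of a type cannot be told apart from less RNA per cell.

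**Figure D1:**
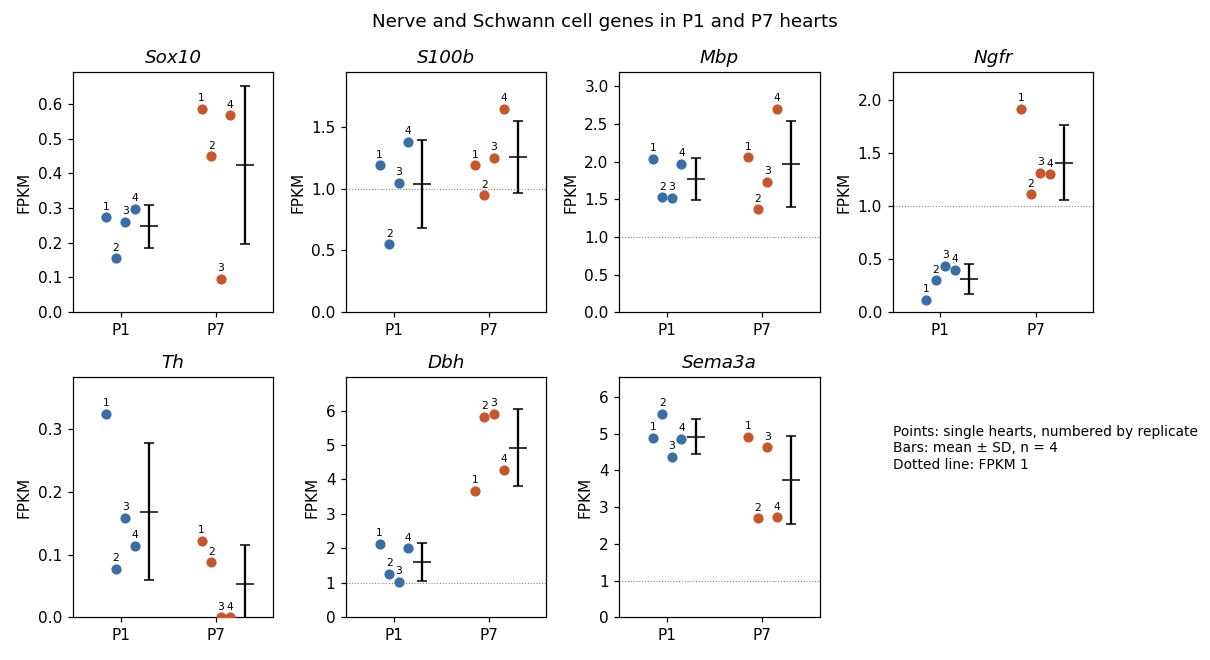
FPKM of the 7 genes in each heart (y axis, linear, starting at 0), with P1 hearts in blue and P7 hearts in orange, numbered by replicate; bars give the mean ± SD of 4 hearts and the dotted line marks 1 FPKM. Dbh and Ngfr are the genes whose P7 hearts (3.67 to 5.91 and 1.11 to 1.92 FPKM) all lie above their P1 hearts (1.04 to 2.13 and 0.119 to 0.439 FPKM).

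The order of the levels changed with age. In P1 the mean FPKM fell in the order Sema3a, Mbp, Dbh, S100b, Ngfr, Sox10 and Th. Only the steps from Sema3a to Mbp and from S100b to Ngfr separated neighbours whose hearts did not overlap. In P7 the order was Dbh, Sema3a, Mbp, Ngfr, S100b, Sox10 and Th, and only the step from S100b to Sox10 was free of overlap.

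Sox10, S100b and Mbp had overlapping values at the stages. Sox10 measured 0.274, 0.155, 0.260 and 0.298 FPKM in the P1 hearts and 0.586, 0.448, 0.0955 and 0.567 FPKM in the P7 hearts. The P7 hearts held both the 3 highest values and the lowest of all 8. The mean was 0.247 ± 0.0632 FPKM in P1 and 0.424 ± 0.227 FPKM in P7 (SD, n = 4 each). An exact permutation test did not separate these levels (two-sided, p = 0.200, where 0.0286 is the smallest p that 4 against 4 hearts allow). These levels rested on approximately 46 fragments in all P1 hearts and 75 in all P7 hearts. Without P7 replicate 3 the stages did not overlap. That heart was the only P7 heart not above every P1 heart, so leaving it out removes the overlap by itself.

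S100b measured 1.19, 0.548, 1.05 and 1.38 FPKM in P1 and 1.19, 0.947, 1.25 and 1.65 FPKM in P7. A heart of each stage, replicate 2 in both cases, was below 1 FPKM, and the stages overlapped. The mean was 1.04 ± 0.356 FPKM in P1 and 1.26 ± 0.291 FPKM in P7 (SD, n = 4 each). The log2 fold change was 0.16 (95% confidence interval -0.28 to 0.59, limma adjusted p = 0.649).

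Mbp measured 2.03, 1.53, 1.52 and 1.97 FPKM in P1 and 2.06, 1.37, 1.73 and 2.71 FPKM in P7. The lowest and the highest value both came from P7 hearts, and no heart was below 1 FPKM. P7 replicates 1 and 4 had the highest Mbp of that stage, and the same hearts had its highest Sox10. Sox10 rested on approximately 22.4 fragments in P7 replicate 1 and 21.5 in P7 replicate 2, too close to rank. S100b did not follow this order, since P7 replicate 3 was above P7 replicate 1. The mean of Mbp was 1.76 ± 0.278 FPKM in P1 and 1.96 ± 0.569 FPKM in P7 (SD, n = 4 each), with a log2 fold change of 0.09 (95% confidence interval -0.34 to 0.51, limma adjusted p = 0.799). The sign of this difference was not stable, with a log2 fold change of -0.069 after median-ratio scaling and -0.027 without P7 replicate 4. The locus of Mbp also gives rise to Golli transcripts, which are known outside myelinating glia, and a value per locus does not separate them.

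Among 28 genes of Schwann cells and myelin, the 4 of the examined genes included, 17 reached 1 FPKM in at least 1 heart. Of these 17, 3 were higher in P7 (Pmp22, Scn7a and Ngfr), 0 were lower and 14 were not called, with a median log2 fold change of 0.16 beside 0.19 for all annotated loci tested. At an unadjusted p under 0.05, 5 were higher and 2 lower, Ncam1 among them. Pmp22, a myelin membrane protein that other tissues also make, rose from 22.3 ± 1.30 to 39.2 ± 4.69 FPKM (SD, n = 4; log2 fold change 0.78, limma adjusted p = 0.0295). Scn7a, a sodium channel found in non-myelinating Schwann cells, rose from 3.14 ± 0.904 to 8.74 ± 2.59 FPKM (SD, n = 4; log2 fold change 1.22, limma adjusted p = 0.0176). The stages did not overlap in either of them. Of the other strongly measured genes of the list, Art3 had means of 89.9 and 79.3 FPKM in P1 and P7, and the adhesion molecule Ncam1 21.2 and 13.7 FPKM, neither of them called. A further 18.5 and 29.5 FPKM, also not called, belonged to L1cam, whose locus is merged with Arhgap4 and Naa10.

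Ncam1 was 21.8, 19.4, 16.0 and 27.4 FPKM in P1 and 14.1, 10.1, 16.0 and 14.7 FPKM in P7. The highest P7 heart, replicate 3, was just below the lowest P1 heart, also replicate 3, so that the stages did not overlap. The gene was not called (log2 fold change -0.58, limma adjusted p = 0.166), but after median-ratio scaling it was called lower in P7 (log2 fold change -0.81, limma adjusted p = 0.00607).

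**Figure D2:**
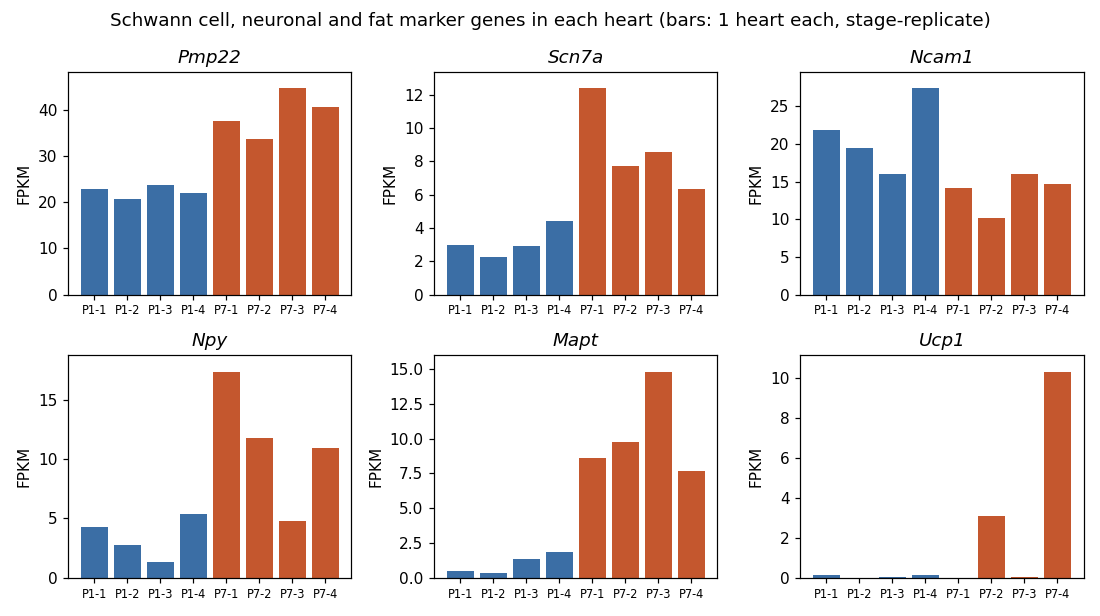
FPKM (y axes, linear, starting at 0) of 3 Schwann cell genes, of Npy and Mapt from the neuron lists and of the brown fat marker Ucp1. A bar is drawn for each heart, named by stage and replicate. Pmp22, Scn7a and Mapt are higher in all P7 hearts than in any P1 heart, Npy overlaps between the stages (1.36 to 5.39 and 4.82 to 17.4 FPKM), and Ucp1 exceeds 1 FPKM in P7 replicates 2 and 4 only.

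Dbh rose about 3-fold between P1 and P7, whereas Th, which acts before it in the pathway, was almost absent. Dbh measured 2.13, 1.26, 1.04 and 2.00 FPKM in the P1 hearts and 3.67, 5.81, 5.91 and 4.28 FPKM in the P7 hearts. All P7 hearts were above all P1 hearts. The mean was 1.61 ± 0.542 FPKM in P1 and 4.92 ± 1.12 FPKM in P7 (SD, n = 4 each), a ratio of 3.06 and a log2 fold change of 1.19 on the log2(FPKM + 1) scale (SE 0.22, 95% confidence interval 0.72 to 1.65, limma adjusted p = 0.0156). The call was lost without P1 replicate 2 (adjusted p = 0.0649) and without P7 replicate 3 (adjusted p = 0.0556). The longest Dbh transcript holds 55.9% G and C, beside a median of 56.2% for the annotated loci called higher in P7 and 48.6% for the others tested. With the trend on GC content removed, the log2 fold change of Dbh was 0.87 (adjusted p = 0.0563).

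Th measured 0.324, 0.0776, 0.158 and 0.114 FPKM in P1 and 0.122 and 0.0876 FPKM in replicates 1 and 2 of P7, while P7 replicates 3 and 4 were at 0. The P7 values lay in the lower part of the P1 range or under it. The mean was 0.168 ± 0.109 FPKM in P1 and 0.0525 ± 0.0622 FPKM in P7 (SD, n = 4 each; exact permutation test, two-sided, p = 0.143), from approximately 23 fragments in all P1 hearts and 6 in all P7 hearts. The level of Dbh was 6.56 to 17.6 times that of Th in the P1 hearts, and 30.0 and 66.3 times in the P7 hearts where Th was above 0. Dbh was thus above Th in every heart.

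Ddc, the enzyme between Th and Dbh, was by far the most strongly measured of the pathway, at 39.2 to 65.3 FPKM in P1 and 33.2 to 48.1 FPKM in P7, and was not called (log2 fold change -0.35, limma adjusted p = 0.385). The level of Ddc was 24.8 to 40.4 times that of Dbh in P1 and 5.69 to 13.1 times in P7. A transcript of Ddc with a first exon of its own is known in developing heart muscle, and the values here are per locus. Pnmt, which makes adrenaline from noradrenaline, and Slc6a2, the noradrenaline transporter of sympathetic axons, did not exceed 0.240 and 0.0830 FPKM in any heart. Slc18a2, which loads amines into vesicles, had means of 3.46 and 2.45 FPKM in P1 and P7 and was lower in every P7 heart without being called (limma adjusted p = 0.293). With median-ratio scaling Slc18a2 and Ddc were called lower in P7 (log2 fold change -0.57 and -0.59, limma adjusted p = 0.0479 and 0.0400). Pnmt, Slc6a2 and Slc18a2 were picked after their values were seen.

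**Figure D3:**
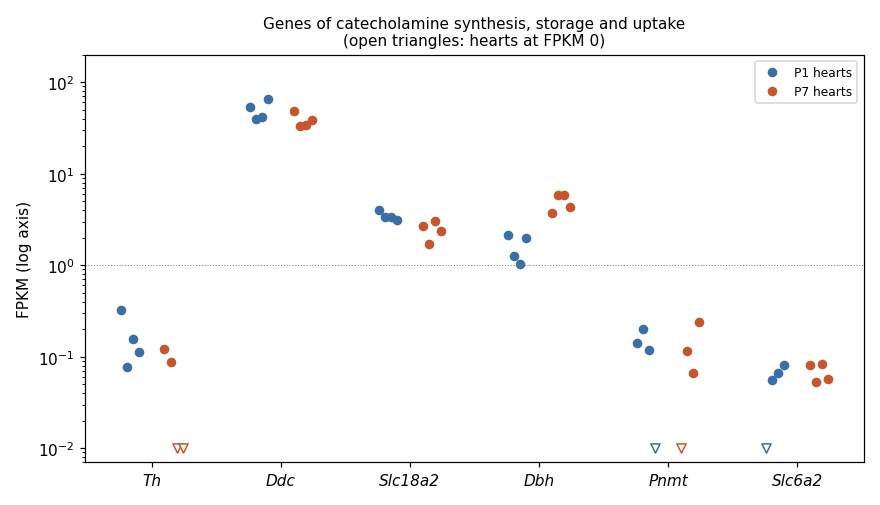
FPKM (y axis, log scale) of genes of catecholamine synthesis, storage and uptake in each heart, P1 in blue and P7 in orange, with hearts at 0 drawn as open triangles at the lower edge and a dotted line at 1 FPKM. Ddc lies between 33.2 and 65.3 FPKM, Th, Pnmt and Slc6a2 lie below 1 FPKM at both stages, and Dbh is the gene whose P7 hearts are all above its P1 hearts.

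The list of 18 sympathetic neuron genes had 12 members below 1 FPKM in every heart, among them the defining transcription factor Phox2a and the granule proteins Chga, Chgb and Scg2. Of the 6 tested, 2 were higher in P7 (Dbh and Npy), 0 were lower and 4 were not called, with a median log2 fold change of -0.20, and 0 were lower at an unadjusted p under 0.05. Npy, the peptide released with noradrenaline, had means of 3.45 ± 1.76 FPKM in P1 and 11.2 ± 5.14 FPKM in P7 (SD, n = 4; log2 fold change 1.44, limma adjusted p = 0.0459). Its stages overlapped, since P7 replicate 3 at 4.82 FPKM was below P1 replicate 4 at 5.39 FPKM. Hand2, a transcription factor of sympathetic neurons and also of heart muscle, was at 71.5 and 64.1 FPKM in P1 and P7 and was not called.

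Ngfr gave the largest ratio between the stages among the 7 genes. It measured 0.119, 0.301, 0.439 and 0.398 FPKM in P1 and 1.92, 1.11, 1.31 and 1.30 FPKM in P7. All P1 hearts were below 1 FPKM and all P7 hearts above it. The mean rose from 0.314 ± 0.142 to 1.41 ± 0.353 FPKM (SD, n = 4 each), a ratio of 4.50 and a log2 fold change of 0.87 on the log2(FPKM + 1) scale, which understates weak genes (SE 0.20, 95% confidence interval 0.45 to 1.30, limma adjusted p = 0.0314). By the estimate above, these levels rested on 69 fragments in all P1 hearts and 307 in all P7 hearts. The exact permutation test gave p = 0.0286, its smallest possible value. The call was less firm than that of Dbh, since it was lost in 6 of 8 fits that left out a heart (adjusted p up to 0.111) and held only without P1 replicate 4 or P7 replicate 2. The longest Ngfr transcript holds 58.6% G and C, and with the trend on GC content removed the log2 fold change was 0.46 (adjusted p = 0.294) and the stages overlapped.

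Of 21 neurotrophic factors and receptors, Ngfr included, 11 were tested, 2 were higher in P7, Ngfr among them, 0 were lower and 9 were not called, and the median log2 fold change was 0.35. At an unadjusted p under 0.05, 4 were higher and 0 lower. Ntf3 and Nrtn, growth factors picked after their values were seen, had P7 hearts that all lay above their P1 hearts, with means of 2.37 and 4.71 FPKM for Ntf3 and 2.33 and 5.11 FPKM for Nrtn. Neither passed the test (limma adjusted p = 0.0832 and 0.0579). The strongest values of the list were those of Cntf, merged with Zfp91 (40.3 and 44.1 FPKM), Sort1, merged with Gm12525 (13.1 and 14.9 FPKM), and Lifr (10.1 and 9.99 FPKM), none of them called.

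Sema3a, the repellent of sympathetic axons, had the highest mean of the 7 genes in P1 and showed no called change. It measured 4.89, 5.54, 4.37 and 4.86 FPKM in P1 and 4.92, 2.70, 4.63 and 2.72 FPKM in P7. P7 replicates 2 and 4 were below all P1 hearts, whereas P7 replicates 1 and 3 lay within the P1 range. The mean was 4.91 ± 0.480 FPKM in P1 and 3.74 ± 1.20 FPKM in P7 (SD, n = 4 each), with a log2 fold change of -0.35 (SE 0.21, 95% confidence interval -0.80 to 0.10, limma adjusted p = 0.380). P7 replicates 2 and 4 were also the hearts with Ucp1, the marker of brown fat, at 3.08 and 10.3 FPKM, and the adipocyte list summed to 5.99 and 16.8 FPKM in them beside at most 0.802 FPKM in the other hearts. Without these 2 hearts the log2 fold change of Sema3a was -0.031 (limma adjusted p = 0.937). They were also the hearts with the lowest Sema3a, so leaving them out moves the fold change towards 0 by itself. The longest Sema3a transcript holds 40.8% G and C. With every heart kept and the trend on GC content removed, the log2 fold change was -0.067 (limma adjusted p = 0.852). A link of Sema3a with brown fat or with GC content was not tested.

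Among 15 class 3 semaphorins and their receptors 14 were tested, 1 was higher in P7 (Sema3b), 0 were lower and 13 were not called. The median log2 fold change was 0.67, that of Sema3a was the lowest of the 14, and 8 were higher and 0 lower at an unadjusted p under 0.05. Sema3b shares its locus with Ifrd2, so that its rise from 6.11 to 16.5 FPKM (log2 fold change 1.34, limma adjusted p = 0.0291) cannot be assigned to either gene. Nrp1, the binding receptor of Sema3a, merged with Mir1903, had means of 42.9 and 43.2 FPKM in P1 and P7 (log2 fold change 0.02, 95% confidence interval -0.44 to 0.49, limma adjusted p = 0.951). Nrp2 had means of 18.6 and 38.7 FPKM, Plxnd1 18.8 and 35.8 FPKM and Sema3c 9.79 and 16.2 FPKM, none of them called. Sema3c was picked after its values were seen.

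Genes of axons and of other neurons were mostly weak. Of 15 axonal genes 13 matched a locus, 8 of them below 1 FPKM in every heart, and of the 5 tested only Mapt was called. Mapt, the microtubule protein tau, rose from 1.01 ± 0.724 to 10.2 ± 3.19 FPKM (SD, n = 4; log2 fold change 2.51, limma adjusted p = 0.00244). Uchl1 had means of 5.95 and 8.86 FPKM, Stmn2 1.10 and 0.950 FPKM and the vesicle protein Syp 0.492 and 1.20 FPKM in P1 and P7, without a call. Syp passed the filter through its P7 hearts only. Of the 5 tested axonal genes, 3 had a positive log2 fold change, with a median of 0.51. At an unadjusted p under 0.05, 3 were higher, Syp among them, and 0 lower. A rise as large as that of Mapt was thus not general in the list, and the cells that made its RNA were not identified. Of 12 cholinergic and sensory genes, 11 matched and 2 were tested, with 0 called in limma and 1 at an unadjusted p under 0.05. The tested genes were Ache, merged with Ufsp1 (3.32 and 4.78 FPKM), and the sodium channel Scn10a (0.962 and 2.05 FPKM, limma adjusted p = 0.0778). Calcb and Slc5a7, the next in level, were below 1 FPKM in every heart. Over all lists together 53 genes were tested and 8 were called, all higher in P7 (15.1%, beside 8.14% of all annotated loci). The direction depended on the scaling, with 7 higher and 4 lower after median-ratio scaling and 8 higher and 1 lower after quantile normalization. In the fit without rescaling, 6 of 48 were called (12.5%) when the 7 genes were left out. When each heart was left out in turn, Mapt was called in 8 of 8 fits, Scn7a in 5, Sema3b in 4, Pmp22 in 2 and Npy in 2. All of these calls but that of Mapt were lost without P1 replicate 2.

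**Figure D4:**
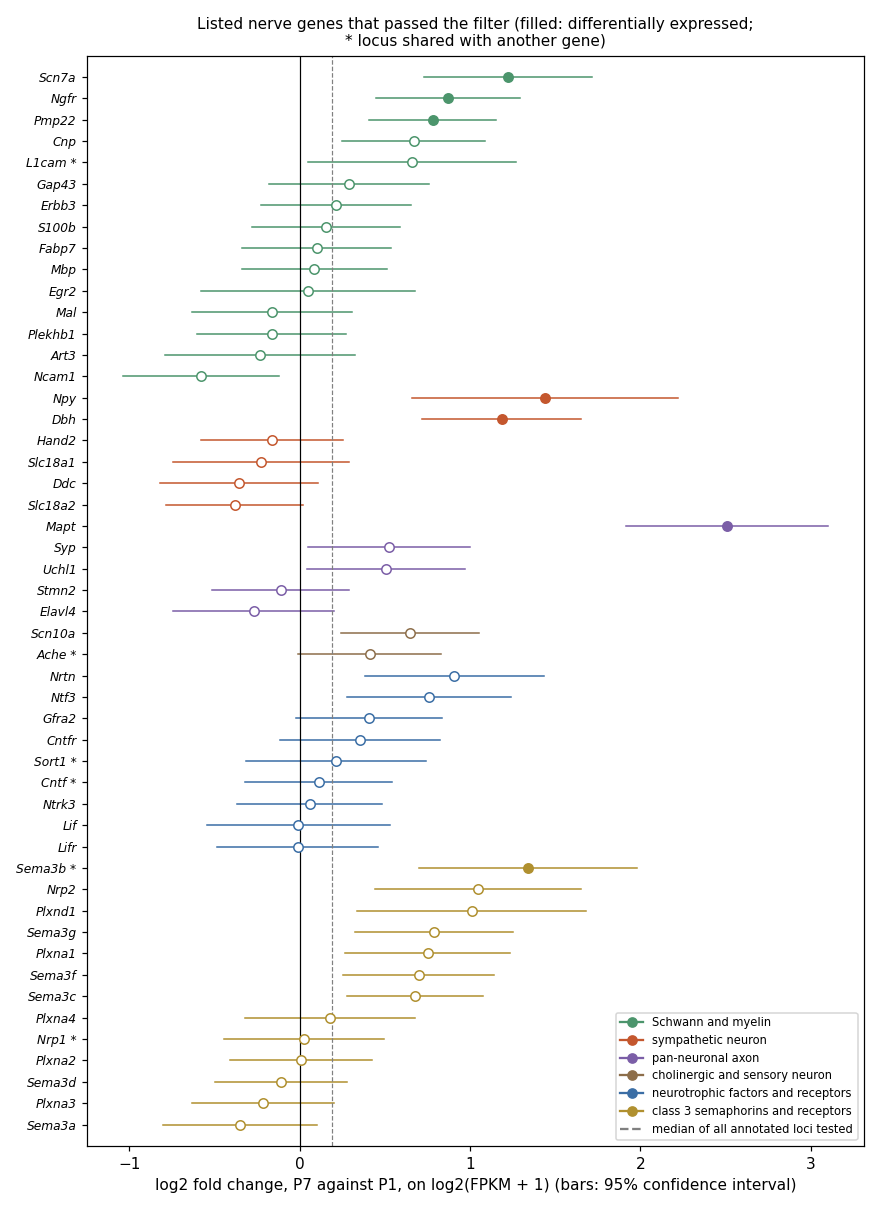
Log2 fold change of P7 against P1 on the log2(FPKM + 1) scale (x axis, points, with 95% confidence intervals as lines) for 50 of the 53 listed nerve genes tested, 7 of the 8 called among them, coloured by list, filled where differentially expressed and starred where the locus is shared with another gene. The 7 filled points all lie to the right of the dashed line at the median of all annotated loci tested (0.19), and Sema3a lies lowest among the semaphorins (-0.35).

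Markers of other cells were compared in the same hearts. The 6 pericyte markers summed to 83.9 to 164 FPKM in P1 and 140 to 230 FPKM in P7, with 3 of them higher in P7. At an unadjusted p under 0.05, 5 were higher and 0 lower, and the median log2 fold change was 1.02. The 6 markers of mesothelium and epicardium summed to 37.1 to 74.0 FPKM in P1 and 76.5 to 102 FPKM in P7, with Tcf21, also a fibroblast gene, higher. The pericyte sums overlapped between the stages and those of mesothelium and epicardium did not. Most of the latter sum was Tcf21, at 25.9 to 50.2 FPKM in P1 and 62.8 to 79.6 FPKM in P7. The other 5 markers of that list each overlapped between the stages and were not called. Ngfr is known in mesenchymal cells too, and the part of these cells in the values of Dbh, Ngfr, Pmp22 and Scn7a was not tested. Of 7 melanocyte markers, which share the neural crest origin of Schwann cells, 1 was higher in P7 (Mlana) and the sum was 30.0 to 43.7 FPKM in P1 and 29.8 to 41.5 FPKM in P7. Most of this sum was Mitf, also a gene of heart muscle, with means of 29.3 and 22.4 FPKM, while Mlana rose from 3.02 to 9.30 FPKM. Of 6 markers of central glia, 5 (Mog, Mobp, Olig1, Olig2 and Opalin) were below 1 FPKM in every heart. The remaining marker, Aqp4, had lowest values of 6.10 FPKM in P1 and 4.92 FPKM in P7 and was not called. Of 7 markers of thymus and T cells, 6 were below 1 FPKM in every heart, Ptcra among them at 0 throughout. The remaining marker, Rag1, had means of 42.2 and 42.3 FPKM in P1 and P7 and was not called. Its locus is merged with B230118H07Rik, so that these values cannot be assigned to either gene. The 5 lung markers summed to 1.13 to 5.16 FPKM in P1, highest in replicate 1, and to 1.63 to 2.92 FPKM in P7. Cartilage markers summed to 7.83 to 9.19 and 9.18 to 11.6 FPKM, with Comp, which passed the filter through its P7 hearts only, higher in P7, and conduction system markers to 19.5 to 30.6 and 29.1 to 34.7 FPKM, with 0 of the 4 tested called in limma and 2 at an unadjusted p under 0.05. The 5 heart muscle markers, at 12186 to 22738 FPKM in P1 and 15450 to 23803 FPKM in P7, were those of the labelled tissue, with 0 called in limma and 1 at an unadjusted p under 0.05.

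For the 5 tested genes the loci with the most similar pattern over the 8 hearts were found by the Pearson correlation of log2(FPKM + 1) with 17169 other loci. Dbh was most like Rbck1 (r = 0.995), Rela (r = 0.994) and Wbp2 (r = 0.992), and 1243 loci exceeded 0.9. Ngfr was most like Arhgap20 (r = 0.990), Tnfsf10 (r = 0.989) and Enpp1 (r = 0.974), and 321 loci exceeded 0.9. For Sema3a the closest were Snora41 (r = 0.986), Gm10499 (r = 0.963) and AC118733.1 (r = 0.958), with 26 loci over 0.9. Mbp had 6 such loci, led by Gm13372, Kirrel3 and Gm11610, and S100b had 10, led by Gm10548, Gm13402 and Gm5617. The 8 points are hearts of 2 ages that share their library and depth for every locus, so that loci which differ between the stages tend to be alike by this measure.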

How the data were processed

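Whole-transcriptome RNA-seq was performed on 8 mouse hearts, 4 at P1 and 4 at P7, each from a separate animal per the labels, without its atrial appendages. Total RNA was depleted of ribosomal RNA and made into libraries with a ScriptSeq v2 kit. A service provider of the authors mapped the reads to GRCm38 with an Ensembl annotation, and FPKM for 80155 loci per heart were deposited. The aligner and its version are not given in the sources used here. The files hold no counts.

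Symbols joined by commas were split and matched without regard to case, and of several loci the one with the highest mean FPKM was taken. Loci of at least 1 FPKM in at least 1 heart (17960 of them annotated) were compared on log2(FPKM + 1), a pseudocount of 1, with limma 3.58.1 in R 4.3.3 (lmFit, eBayes with trend, no covariates), adjusted over all loci tested, annotated or not. Thresholds were an adjusted p of 0.05 and a ratio of mean FPKM of 1.5. Single values were compared with an exact two-sided permutation test over 70 assignments. The fit was tested on simulated data. Approximate fragments used the longest GENCODE M21 transcript and cover counting error only. GC correction subtracted from each heart a lowess trend (span 0.3) on transcript GC content, known for 85.9% of annotated loci tested, and was chosen after seeing the data. Promoters came from the RefSeq table. Python 3.11.15, pandas 2.3.3 and numpy 2.4.6 made the tables. The genes and lists were chosen with earlier results of these data known. Named are the 7 genes, the genes called in each nerve list, the 4 with the highest mean in each nerve list, and the 3 loci most like each tested gene. Other genes of the nerve lists are said to be picked after their values were seen. Alternatives were another pseudocount, filter, scaling, variance model or summing of loci, the replicate number as a block, and leaving out each heart or the hearts with Ucp1. Count models were left out. Some listed genes enter the counts of their lists but are not reported here by name or drawn.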

Additional observations from a re-analysis of the deposited data

How the results depend on the processing

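Of the 7 genes, 2 were called. This count was 1 without a filter and 1 with a filter of 1 FPKM in every heart. That filter left 3 of the genes to test and removed Ngfr, while Dbh stayed called. The count was 0 after GC correction, 0 after GC correction with the replicate block, 0 without the 2 hearts with Ucp1, and 0 to 2 when a heart was left out. Dbh was called in 14 of 19 alternatives (log2 fold change 0.87 to 1.59) and Ngfr in 7 of 18 (0.46 to 1.92), each of them positive in all. Mbp reversed to -0.069 with median-ratio scaling and to -0.027 without P7 replicate 4. Sema3a stayed between -0.57 and -0.031, the latter without the hearts with Ucp1, and S100b between 0.028 and 0.30, without a call. Of the listed nerve genes 8 were called, all higher (7 higher and 4 lower with median-ratio scaling, 8 and 1 with quantile normalization), beside 5 without a filter, 13 with the filter in every heart, 5 after GC correction, 3 after GC correction with the replicate block, 3 without the hearts with Ucp1, and 1 (without P1 replicate 2) to 16 (without P1 replicate 4) when a heart was left out. Over all annotated loci, 1462 were called, beside 620 without a filter, 2573 with the filter in every heart, 941 without a trend, 408 after GC correction, 383 after GC correction with the replicate block, 337 without the hearts with Ucp1, and 167 to 2835 when a heart was left out. The cause was not tested, except that leaving out hearts lowers the number of samples. Median-ratio scaling called 1445 higher and 659 lower and quantile normalization 1407 and 610, beside 1390 and 72, and median-ratio scaling moved the median log2 fold change of all loci tested from 0.19 to 0.0095. With it Ncam1, Ddc and Slc18a2 were called lower in P7, while Dbh and Ngfr remained higher. Of the 7 genes, Dbh and Ngfr did not overlap between the stages. Sema3a was added as lower with quantile normalization and Sox10 as higher without P7 replicate 3, the heart with its lowest value. After GC correction Dbh was higher, Ngfr overlapped and Th was lower.

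Between hearts with the same replicate number, the deviations from the stage means had correlations of -0.0188, 0.122, -0.102 and -0.0270. The value of 0.122, for replicate 2, was the highest between any P1 and any P7 heart. So few correlations cannot exclude that the hearts were paired. With the replicate block 1 of the 7 genes was called and Ngfr had an adjusted p of 0.0662. Th and Sox10 rested on few fragments and lay below the filter. Without a filter the log2 fold changes were 0.18 for Sox10 and -0.15 for Th, neither called.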
